A study of Mus musculus with 40 samples.

Results

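HE1-only regions were stretches of the mouse genome whose cloned fragments were recovered from reporter-positive cells of hemogenic endothelium 1 (HE1) and of no other sorted stage of blood formation. The name states where fragments were found and does not show activity at 1 stage alone. They were chosen by overlap and by gate. All fragments of the 40 libraries that overlapped by 1 bp or more were merged into 75060 regions, and a region was kept if at least 2 different fragments of it lay in the Low, Medium or High reporter gates of HE1 and none lay in those gates of the other 4 stages. The rule kept 3118 of the 75060 regions, with 9188 of the 136536 different positive fragments of HE1, where positive means present in any gate above Negative.

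The screen used HM-1 embryonic stem cells of strain 129/ola, which lack a working Hprt gene. Open-chromatin fragments cut by Tn5 were cloned before an HSP68 minimal promoter and Venus-YFP and placed at Hprt, which the insertion repairs, so that each cell carried 1 fragment. All groups shared this line and the serum culture, and none was treated otherwise. Cells were sorted as undifferentiated embryonic stem cells (ES), as FLK1+ hemangioblast-like cells from embryoid bodies (HB), and from the following blast culture as HE1 (KIT+ TIE2+ CD41-), hemogenic endothelium 2 (HE2, KIT+ TIE2+ CD41+) and hematopoietic progenitors (HP, KIT+ TIE2- CD41+). Each stage was sorted into Negative, Low, Medium and High YFP gates in 2 replicates, and 1 stage of 1 replicate is called a sort. The files hold positions of fragments and no expression, so the surface markers that define HE1 could not be checked, and the model is 1 cell line with every fragment read out at 1 locus rather than at its own.

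Hemogenic endothelium is the endothelium that gives rise to blood. Its cells keep endothelial genes such as Cdh5 and Kdr while the transcription factor RUNX1 rises, and they then leave the endothelial layer as progenitors in the endothelial-hematopoietic transition. TEAD factors of the Hippo pathway, SOX factors, Notch signalling through RBPJ, and AP-1, which answers growth factor signals, are known to act in such cells, whereas RUNX and PU.1 sites are known for the later, hematopoietic stages.

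The sequences of 8 regions are shown here as examples. The first 4 led the ranking of regions seen in both replicates, and the other 4, picked after their values were seen, lie nearest to genes of endothelial or blood development. Each run is RefSeq sequence of GRCm38 (mm10), plus strand, of 300 bases about the deepest coverage by HE1 fragments, and capitals mark matches to the motifs searched. The windows are chr19:45031884-45032183 in an intron, nearest Pdzd7, chr9:62818317-62818616 between genes, nearest Fem1b, chr8:111059071-111059370 between genes, nearest Exosc6, chr12:69502513-69502812 between genes, nearest 5830428M24Rik, chr2:137109895-137110194 in an intron, nearest Jag1, chr3:151383561-151383860 between genes, nearest Adgrl4, chr3:52383423-52383722 between genes, nearest Foxo1, and chr7:35112261-35112560 between genes, nearest Cebpa.
Pdzd7: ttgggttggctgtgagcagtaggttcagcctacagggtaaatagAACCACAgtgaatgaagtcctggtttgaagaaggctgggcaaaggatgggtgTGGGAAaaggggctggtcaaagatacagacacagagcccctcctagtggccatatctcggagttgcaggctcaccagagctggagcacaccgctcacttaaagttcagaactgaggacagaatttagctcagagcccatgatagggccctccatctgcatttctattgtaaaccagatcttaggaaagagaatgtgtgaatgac
Fem1b: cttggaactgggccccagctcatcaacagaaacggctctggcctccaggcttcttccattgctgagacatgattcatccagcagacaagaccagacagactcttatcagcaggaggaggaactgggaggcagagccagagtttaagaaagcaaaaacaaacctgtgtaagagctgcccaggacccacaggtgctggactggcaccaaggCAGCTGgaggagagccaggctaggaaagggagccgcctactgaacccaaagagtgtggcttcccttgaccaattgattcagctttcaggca
Exosc6: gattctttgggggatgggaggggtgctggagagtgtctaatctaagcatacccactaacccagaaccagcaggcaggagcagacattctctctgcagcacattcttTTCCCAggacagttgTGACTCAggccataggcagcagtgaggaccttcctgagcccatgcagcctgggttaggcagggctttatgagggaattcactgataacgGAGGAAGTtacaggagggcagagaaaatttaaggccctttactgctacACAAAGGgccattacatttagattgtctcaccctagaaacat
5830428M24Rik: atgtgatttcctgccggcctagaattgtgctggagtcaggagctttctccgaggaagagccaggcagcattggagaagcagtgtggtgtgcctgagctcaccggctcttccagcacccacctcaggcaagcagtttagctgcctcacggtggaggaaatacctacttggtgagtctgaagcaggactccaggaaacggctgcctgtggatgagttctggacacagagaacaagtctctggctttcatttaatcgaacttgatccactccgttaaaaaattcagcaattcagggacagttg
Jag1: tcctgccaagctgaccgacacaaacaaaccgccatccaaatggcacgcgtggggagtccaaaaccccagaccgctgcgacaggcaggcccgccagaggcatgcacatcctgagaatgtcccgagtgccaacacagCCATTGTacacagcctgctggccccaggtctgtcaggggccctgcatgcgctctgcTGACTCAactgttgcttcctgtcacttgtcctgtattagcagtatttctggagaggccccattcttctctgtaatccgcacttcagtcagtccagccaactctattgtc
Adgrl4: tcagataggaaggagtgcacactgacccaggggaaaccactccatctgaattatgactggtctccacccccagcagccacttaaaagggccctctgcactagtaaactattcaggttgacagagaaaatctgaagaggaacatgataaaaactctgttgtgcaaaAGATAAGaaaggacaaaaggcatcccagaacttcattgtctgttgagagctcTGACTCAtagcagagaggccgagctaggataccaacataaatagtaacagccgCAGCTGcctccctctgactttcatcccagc
Foxo1: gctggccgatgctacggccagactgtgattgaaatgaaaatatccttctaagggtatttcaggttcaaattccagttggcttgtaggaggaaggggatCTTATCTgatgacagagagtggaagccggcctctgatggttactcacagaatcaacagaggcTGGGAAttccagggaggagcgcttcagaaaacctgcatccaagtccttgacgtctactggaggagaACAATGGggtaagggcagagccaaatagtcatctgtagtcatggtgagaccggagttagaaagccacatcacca
Cebpa: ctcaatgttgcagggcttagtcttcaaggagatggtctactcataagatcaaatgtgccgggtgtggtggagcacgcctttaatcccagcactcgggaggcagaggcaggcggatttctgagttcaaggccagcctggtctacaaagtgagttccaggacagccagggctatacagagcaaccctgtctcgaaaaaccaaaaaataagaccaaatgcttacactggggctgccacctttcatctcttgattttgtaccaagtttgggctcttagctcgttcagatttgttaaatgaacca

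The motifs searched on both strands were AP-1 (TGACTCA), RUNX (TGTGGTT, with TGTGGTC as its second form), PU.1 (GAGGAAGT), ETS (CGGAAGT, with AGGAAGT as its second form, which lies within the PU.1 motif), the motif of GATA factors (AGATAAG), TEAD (GGAATGT, with GGAATGC as its second form), SOX (ACAAAGG, with ACAATGG as its second form), the octamer ATGCAAAT, the E-box CAGCTG, the C/EBP motif TTGCGCAA, the RBPJ motif TGGGAA and CTCF by its core. The window near Exosc6 held 5 matches, to AP-1, PU.1, ETS, SOX and RBPJ, of which the ETS match lies within the PU.1 match. The window near Jag1, which encodes a Notch ligand, held 1 AP-1 and 1 SOX match, and the window near Adgrl4, which encodes an adhesion receptor of endothelium, held AP-1, GATA and E-box matches. The windows near Cebpa and 5830428M24Rik held none of these letters. The reference marks 36.3% of the bases of the whole region near Cebpa as repeats. A match describes the letters and is no evidence of a bound factor.

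Some libraries stood apart. HE1 Negative and Medium of replicate 1 shared 28868 identical fragments, which were 69.8% of the first and 56.4% of the second. HE1 Low of replicate 2 held 65.5% of the fragments of ES Medium and 56.4% of those of HE2 Medium of the same replicate. HE1 Negative of replicate 2 shared 52.2% of its fragments with HE2 Negative, 47.9% with HE1 Low and 45.8% with HP Negative of that replicate. HE1 Medium of replicate 2 shared 23.2% with HE2 Negative of that replicate. Library sizes ran from 654 to 51146 fragments, with 1413 to 51146 among the HE1 positive libraries. Whether cells or reads passed between these libraries was not tested, so a gate or stage label of their fragments is less certain than elsewhere, and the differences tested below over sorts for the replicate not used for choosing and for the Negative gate are given with and without HE1 Medium of replicate 1 and HE1 Low of replicate 2.

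Most HE1-only regions rested on few fragments of 1 replicate. Exactly 2 fragments carried 1895 of the 3118 regions (60.8%), 3 fragments carried 585, and 5 or more carried 361. The highest number was 50 and the median was 2. Replicate 1 alone supplied 1202 regions, replicate 2 alone 1845, and 71 (2.28%) had positive HE1 fragments of both. The same rule applied to the other stages gave both replicates in 5.22% of ES-only and 5.02% of HB-only regions. The share was 0.577% of HE2-only and 1.68% of HP-only regions. Regions of 2 or more HE1 positive fragments that were also positive at another stage, called shared HE1 regions below, numbered 16192, and 2210 of them (13.6%) had HE1 fragments of both replicates, with a median of 5 fragments. Among regions of exactly 2 fragments, both replicates were seen in 22 of the 1895 HE1-only regions (1.16%) and in 116 of 2970 shared regions (3.91%).

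A single library held more than any other. HE1 Low of replicate 2 contained fragments of 1728 HE1-only regions and was the only source for 1596. HE1 Medium, High and Low of replicate 1 contained 1072, 849 and 424 regions and were the only source for 243, 89 and 13. HE1 Medium and High of replicate 2 contained 159 and 103. Regions of replicate 1 were spread over gates, since 345 of its 1202 lay in 1 gate, 685 in 2 gates and 172 in all 3, whereas 1772 of the 1845 regions of replicate 2 lay in 1 gate.

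**Figure D1:**
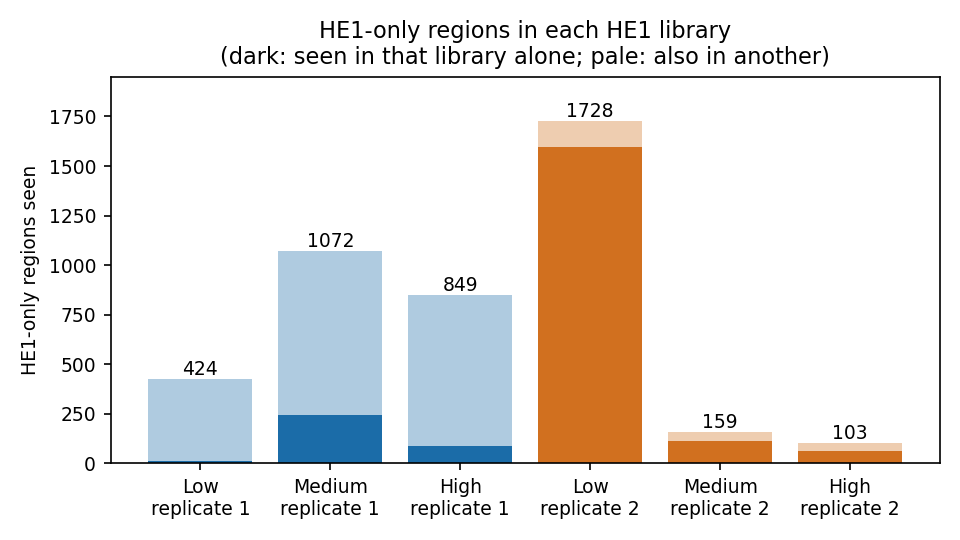
Number of HE1-only regions (vertical axis) with at least 1 fragment in each of the 6 HE1 positive libraries (horizontal axis); dark parts are regions seen in that library alone. HE1 Low of replicate 2 reached 1728 regions, 1596 of them in no other library, while most regions of replicate 1 were seen in more than 1 of its libraries.

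The gates of these fragments lay within 7 percentage points of those of all HE1 fragments. In replicate 1, 12.4% of the 4116 fragment lines in HE1-only regions lay in Low (95% Wilson interval 11.4 to 13.4%), 55.1% in Medium (53.5 to 56.6%) and 32.6% in High (31.1 to 34.0%). All positive HE1 fragments of that replicate divided into 14.6%, 48.4% and 37.0%, so the Medium share was higher, and the Low and High shares lower, in HE1-only regions. In replicate 2 the 5273 lines divided into 88.2% Low, 6.64% Medium and 5.14% High, beside 88.6%, 7.48% and 3.92% of all its positive fragments. There the Medium share was lower (upper bound 7.34%) and the High share higher (interval 4.58 to 5.77%), the opposite of replicate 1. With 2 replicates that differ this far, no test of a gate was made. Fragments are counted once per library whatever their reads, PCR carried no molecular identifiers, and intervals cover counting error only. They also take lines as independent, while lines of 1 region are not. The region near Adam19 alone gave 49 Medium lines of replicate 1. The intervals are therefore too narrow to call a difference between gates.

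Many fragments of a region were near copies. When fragments whose 2 ends both lay within 5 bp were counted once over all HE1 libraries, 1325 regions (42.5%) came down to 1 position. These were 1272 of the 1845 regions of replicate 2 alone (68.9%), 52 of the 1202 of replicate 1 alone (4.33%) and 1 of the 71 seen in both. The same count gave 188 of 517 ES-only regions (36.4%), 225 of 717 HB-only (31.4%), 63 of 520 HE2-only (12.1%) and 249 of 535 HP-only (46.5%). Only 1821 HE1-only regions remained when such near copies were counted once within each library before the rule was applied. The region nearest Vps8, a gene of endosome tethering, had 15 fragments, all in HE1 Low of replicate 2 and all at 1 position.

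HE1 also had the most positive fragments of the 5 stages, which bears on the number of regions. It held 136536 different positive fragments against 36551 in ES, 51015 in HB, 71837 in HE2 and 44827 in HP. Per 1000 positive fragments there were 22.8 HE1-only regions, 14.1 ES-only, 14.1 HB-only, 7.24 HE2-only and 11.9 HP-only. When every stage was thinned to 36551 positive fragments, the mean over 20 draws was 695 HE1-only regions beside 711 ES-only, 554 HB-only, 615.5 HE2-only and 610.4 HP-only. The ES and HE1 means differed by less than the SD over draws in HE1 (23.4). Only the number of fragments was matched, and the mix of libraries and replicates and the near copies were not.

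The regions of replicate 1 and replicate 2 differed in their DNA. The reference marks repeats, and repeats made up a mean of 11.4% of the bases of a region of replicate 1 alone, 29.3% of a region of replicate 2 alone and 13.6% of a region seen in both, beside 16.9% over all regions. Over 50 percent of the bases were repeats in 433 of 1843 regions of replicate 2 alone (23.5%) and in 35 of 1202 of replicate 1 alone (2.91%). Replicate 2 regions with 2 or more positions had a mean of 45.9%. The other single-stage sets had a gap of the same direction, with means of 10.1 to 15.3% in replicate 1 alone and of 22.5 to 29.0% in replicate 2 alone, and all positive regions stood at 11.6% and 21.2%. Among the regions with most fragments, those near Uap1l1 (86.5%), Apbb2 (71.2%) and Gm45623 (55.3%) were mostly repeat, and all of these lay wholly in HE1 Low of replicate 2. The repeat share was a measure added after seeing the data.

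Fragment length differed in the same way. The median length of fragments in HE1-only regions was 140 bp in Medium and High and 151 bp in Low of replicate 1, and 328, 235.5 and 257 bp in Low, Medium and High of replicate 2.

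To see whether the regions were active in HE1 beyond the libraries that chose them, the rule was applied to 1 replicate and the regions were measured in the other. Regions chosen in replicate 2 numbered 2154, and in replicate 1 they took 291 of every 10000 positive fragments in ES, 265 in HB, 222 in HE1, 213 in HE2 and 250.1 in HP. Regions chosen in replicate 1 numbered 1304, and in replicate 2 they took 23.3 per 10000 in ES, 29.5 in HB, 19.8 in HE1, 14.4 in HE2 and 21.1 in HP. Both times ES, HB and HP stood above HE1 and HE2 below it. The mean was 121 ± 143 per 10000 in HE1 (SD, n = 2) and 138 ± 126 in the other stages (SD, n = 8), a difference of -17.6 (two-sided exact permutation test over the 10 sorts, p = 0.689, where 0.0222 is the smallest p possible). Without HE1 Low of replicate 2 the difference was 6.39 per 10000 (exact permutation p = 0.289), with 29.1 and 37.5 in HE1 and a mean of 26.9 in the other stages. Without HE1 Medium of replicate 1 it was -16.7 (exact permutation p = 0.689).

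**Figure D2:**
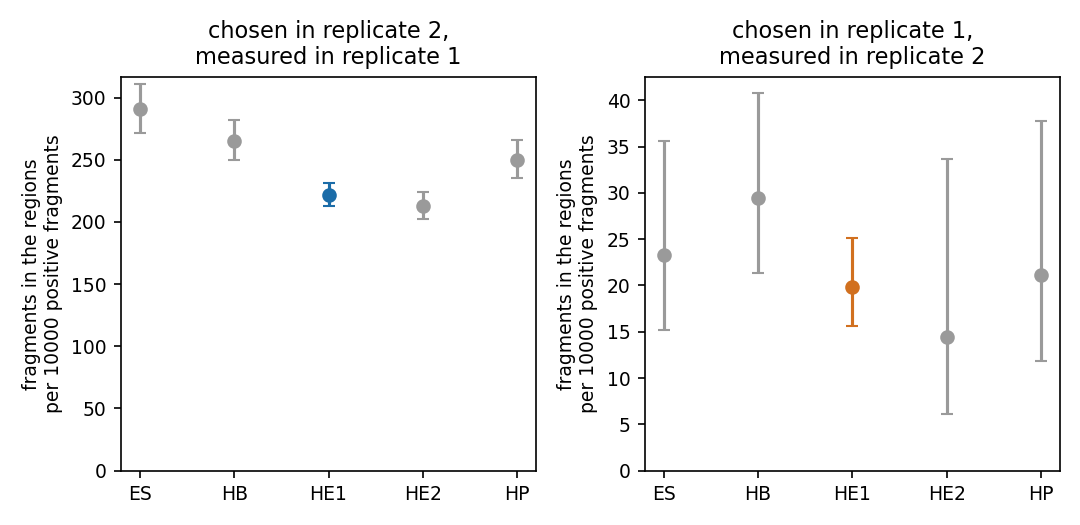
Fragments per 10000 positive fragments (vertical axes, different scales) in regions chosen by the rule in 1 replicate alone, 2154 in replicate 2 and 1304 in replicate 1. Each panel shows the stages of the replicate that was not used to choose them. Bars are 95% Wilson intervals. HE1 (coloured) lay below ES, HB and HP in both panels, with overlapping intervals in the panel measured in replicate 2.

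Counted by region, the order was different, and HE1 was the highest stage in both replicates. Of the 2154 regions chosen in replicate 2, 242 (11.2%) had a positive HE1 fragment in replicate 1, the background over all regions positive in replicate 2 was 10.5%, and the other stages ran from 8.50% to 10.7%. Of the 1304 chosen in replicate 1, 63 (4.83%) had a positive HE1 fragment in replicate 2, where the background was 9.69% and the other stages ran from 0.383% to 2.38%. The mean difference was 2.56 percentage points (exact permutation p = 0.467). HE1 also had the most fragments with which to hit a region, 101943 in replicate 1 and 34809 in replicate 2, beside at most 68427 and 12209 at another stage, and the part of this in the result was not tested. Of the 242, 237 were also positive at another stage in replicate 1, which left 5 that were positive in HE1 alone. Of the 63, 12 were also positive elsewhere and 51 in HE1 alone. No positive fragment of any stage was seen in the other replicate for 1845 (85.7%) and 1202 (92.2%) of the regions. Such absence was common throughout the series. Of all positive regions on placed chromosomes, 32922 lay in replicate 2 alone, 25003 in replicate 1 alone and 5132 in both.

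Fragments of these regions were also found in the Negative gate, mostly as the same fragments that the rule had counted in the positive gates. In replicate 1, 1495 of 41374 fragments of HE1 Negative (3.61%, 95% Wilson interval 3.44 to 3.80%) lay in HE1-only regions, beside 0.473% in ES, 0.309% in HB, 0.807% in HE2 and 0.414% in HP. In replicate 2, 23 of 2773 fragments of HE1 Negative (0.829%, 0.553 to 1.24%) lay in them, beside 0.391%, 0.622%, 0.513% and 0.609% in ES, HB, HE2 and HP. Both HE1 Negative libraries were above all 8 others, although the replicate 2 interval overlapped those of several, and the means of 2.22 ± 1.97% (SD, n = 2) and 0.517 ± 0.158% (SD, n = 8) differed by 1.70 percentage points (exact permutation p = 0.0222, the smallest possible). This p is not independent of the rule. Over 82 percent of these HE1 Negative fragments, 1239 of 1495 and 19 of 23, were identical to a positive HE1 fragment of the same replicate. Without identical fragments the difference was 0.575 points (exact permutation p = 0.2). When regions were chosen in the other replicate it was -0.0753 points (exact permutation p = 0.844), with 2.75% and 0.288% in HE1 Negative. Without HE1 Low of replicate 2 it was 1.53 points (exact permutation p = 0.156). Without HE1 Medium of replicate 1 it was 0.789 points (exact permutation p = 0.0222), with 1.46% in HE1 Negative of replicate 1. The libraries compared were not wholly separate, since HE1 Negative of replicate 2 shared 52.2% of its fragments with HE2 Negative of that replicate.

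**Figure D3:**
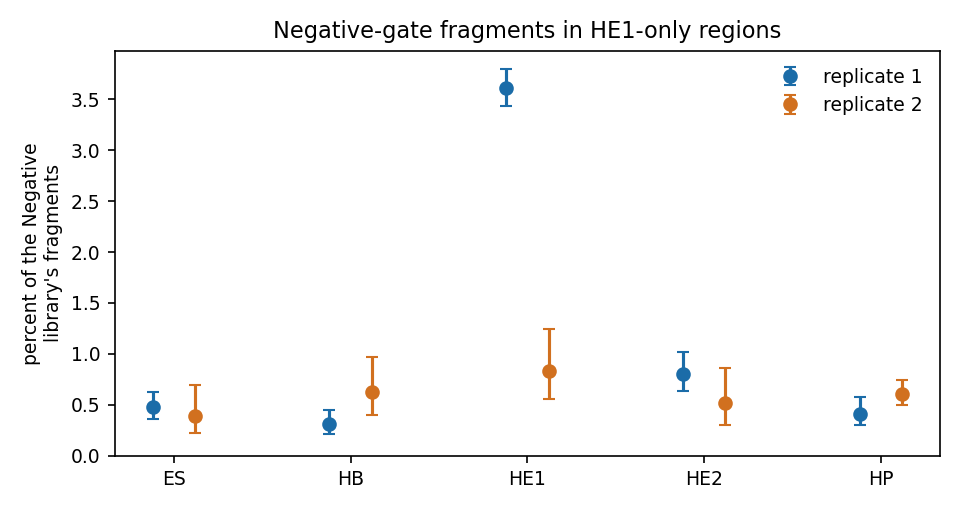
Percent of the fragments of each Negative library (vertical axis) that lay in HE1-only regions, by stage and replicate, with 95% Wilson intervals. HE1 of replicate 1 stood at 3.61% and the 9 other libraries between 0.309% and 0.829%.

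By region, 907 of the 3118 (29.1%) had a Negative fragment of HE1 and the background over all regions was 22.0%. They were 836 of the 1202 regions of replicate 1 alone (69.6%), 17 of the 1845 of replicate 2 alone (0.921%) and 54 of the 71 seen in both. A Negative fragment of another stage was seen in 250 regions (8.02%), and 2096 regions (67.2%) had no Negative fragment at any stage. Shares over all regions were not counted for these values or for the split by replicate. They therefore do not set HE1-only regions apart from other regions. HE1 Negative held 41374 fragments in replicate 1 and 2773 in replicate 2.

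AP-1, TEAD, SOX, ETS, GATA, PU.1, RBPJ and E-box matches were more frequent in the HE1-only regions of replicate 1 than in those of replicate 2. Within 300 bp windows about region centres, an AP-1 match lay in 291 of 1202 regions of replicate 1 alone (24.2%, 95% Wilson interval 21.9 to 26.7%), in 90 of 1843 of replicate 2 alone (4.88%, 3.99 to 5.96%) and in 16 of the 71 of both (22.5%, 14.4 to 33.5%). The share over all regions was 9.77%. TEAD matches lay in 17.6%, 8.03% and 11.3% of the 3 sets, beside 9.71% of all regions. SOX matches lay in 18.2%, 10.8% and 19.7%, beside 12.4% of all regions. GATA matches lay in 9.65%, 4.56% and 12.7%, beside 5.85% of all regions and 8.90% of shared HE1 regions of replicate 1 alone. E-box matches lay in 23.1%, 16.8% and 22.5%, beside 19.7% of all regions. They lay in 23.4% of all positive and 25.8% of shared HE1 regions of replicate 1 alone, and in 16.7% of all positive regions of replicate 2 alone. ETS matches lay in 18.8%, 8.57% and 12.7%, beside 13.3% of all regions, 18.5% of all positive regions of replicate 1 alone and 20.2% of shared HE1 regions of replicate 1 alone. PU.1 matches lay in 4.24%, 2.12% and 5.63%, beside 3.59% of all regions and 5.51% of shared HE1 regions of replicate 1 alone. RBPJ matches lay in 31.8%, 26.0% and 39.4%, beside 28.3% of all regions and 29.5% of shared HE1 regions of replicate 1 alone. RUNX matches did not show this gap, with 10.7%, 12.2% and 9.86% beside 12.9% of all regions. Windows with both an AP-1 and a TEAD match numbered 35 in replicate 1 alone (2.91%), 2 in replicate 2 alone (0.109%) and 3 in both (4.23%). They were 0.981% of all regions and 1.76% of shared HE1 regions. Whether the 2 motifs met more often than their separate shares give was not tested.

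The same gap between replicates was present outside the HE1-only regions. Shared HE1 regions with HE1 fragments of replicate 1 alone held an AP-1 match in 17.6% and those of replicate 2 alone in 5.37%. All positive regions of replicate 1 alone and replicate 2 alone stood at 14.7% and 6.45%. The AP-1 share of HE1-only regions was thus above that of shared regions in replicate 1 and below it in replicate 2. These shares are descriptions, since regions of 1 replicate are not replicates of a condition and their intervals cover counting error only. Restricting to regions without an HE1 Negative fragment, the AP-1 share in replicate 1 alone was 26.5% of 366. CTCF matches lay in 1.33% of HE1-only and 7.75% of shared HE1 regions of replicate 1 alone, in 0.760% and 0.895% of those of replicate 2 alone, and in 2.73% of all regions.

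**Figure D4:**
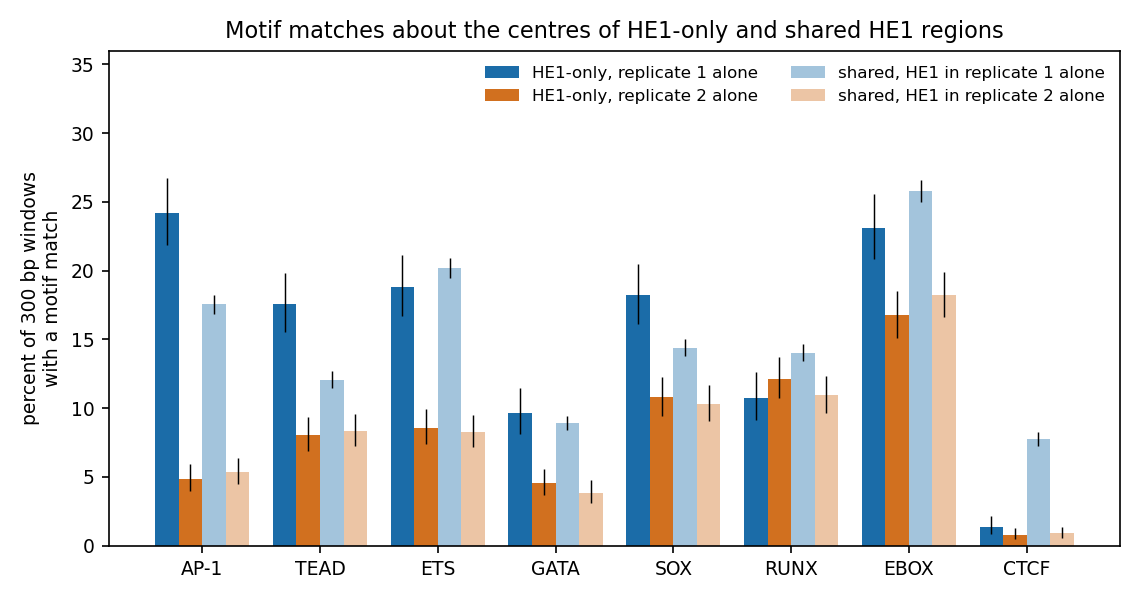
Percent of 300 bp windows about region centres (vertical axis) with at least 1 match to 8 motifs, for HE1-only regions (full colour) and shared HE1 regions (pale) seen in HE1 in replicate 1 alone (blue) or replicate 2 alone (orange); bars are 95% Wilson intervals. AP-1, TEAD, ETS, GATA, SOX and E-box were higher in blue than in orange, and AP-1 reached 24.2% in HE1-only regions of replicate 1.

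Compared by library, the HE1-only fragments of replicate 1 held 0.852, 0.933 and 1.06 AP-1 matches per kb in Low, Medium and High, against 0.608, 0.661 and 0.593 in fragments of shared regions of the same libraries. In replicate 2 they held 0.168, 0.175 and 0.342, against 0.219, 0.358 and 0.291. AP-1 was higher in HE1-only fragments in 4 of 6 libraries (difference 0.133 per kb, two-sided exact sign-flip permutation test, p = 0.188, adjusted p = 0.455 over 17 measures). TEAD was higher in 3 of 6 libraries, by 0.0737 per kb on average (exact permutation, adjusted p = 0.767).

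In all 6 libraries, HE1-only fragments had lower GC content, lay farther from start sites and held fewer E-box and CTCF matches than fragments of shared regions. GC content was 49.3 ± 1.46% against 53.5 ± 2.43% (SD, n = 6 libraries), and the median distance to the nearest start site was 27901 ± 6406 bp against 18902 ± 2278 bp. E-box matches stood at 0.766 ± 0.189 against 0.891 ± 0.148 per kb and CTCF matches at 0.0445 ± 0.0344 against 0.176 ± 0.121 per kb. Each reached the smallest p that 6 libraries allow (exact permutation p = 0.03125), but none of the 17 measures passed after adjustment (adjusted p = 0.133 for these 4). Gates of 1 replicate share its cells, so the 6 libraries are not 6 cultures. Shared regions also carried more fragments, with a median of 5 against 2.

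Against the sets chosen by the same rule for another stage, none of the 17 measures separated HE1. AP-1 matches stood at 0.966 per kb in HE1 of replicate 1, the highest of the 10 sorts, and at 0.175 per kb in HE1 of replicate 2, while the 8 other sorts ran from 0.159 to 0.655. The difference of 0.219 per kb had an adjusted p of 0.944 (exact permutation test, 2 against 8 sorts, with Benjamini-Hochberg adjustment). TEAD was 0.608 and 0.270 per kb in HE1 and 0.167 to 0.557 elsewhere. SOX was 0.757 and 0.369 per kb in HE1 and 0.172 to 0.657 elsewhere. RUNX was 0.403 and 0.448 per kb in HE1, 0.852 in HE2-only and 0.759 in HP-only fragments of replicate 1, and 0.369 to 0.558 in the 6 remaining sorts. No measure had an unadjusted p under 0.05 by the exact permutation test. GC content was 50.7% and 48.3% in HE1 and 48.0 to 54.4% elsewhere, and the median fragment length was 142 and 322 bp in HE1 and 141.5 to 240 bp elsewhere.

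The regions lay where distal fragments of the series lay in general. Their centres were in introns in 1443 of 3116 cases (46.3%), between genes in 1550 (49.7%) and in exons in 123 (3.95%), beside 46.3%, 48.5% and 5.16% of all regions. The median distance to the nearest start site was 25923.5 bp, beside 24858 bp for all regions, and 12 regions lay within 1500 bp of one. On unplaced scaffolds lay 2 regions, which have no annotation. The median width was 334 bp, with a range of 72 to 1038 bp. The 3116 regions were nearest to 2673 different genes, of which 380 had 2 or more.

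At the threshold, regions of 1 HE1 fragment and no other stage numbered 15746, of which 88.5% came from replicate 2 alone and 4.41% had an HE1 Negative fragment. For regions of exactly 2 fragments the same values were 67.4% and 19.7%, and for regions of 3 or more 46.4% and 43.7%. Their median widths were 334, 322 and 350 bp. These values describe the rule and were not tested.

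The regions seen in both replicates are the only ones with any replicate support. In just 2 of the 71 were there 2 or more fragments of each replicate. The first, in an intron and 13673 bp downstream of the Pdzd7 start, a gene for a PDZ scaffold protein, had 2 fragments in Medium and 2 in High of replicate 1, together 3 different ones, and 2 in Low of replicate 2. It also had 3 HE1 Negative fragments. The second, 6845 bp upstream of Fem1b, a substrate receptor of a ubiquitin ligase, had 2 in Medium of replicate 1 and 2 in Low of replicate 2, with 1 HE1 Negative fragment. The region 2747 bp from Exosc6, an RNA exosome subunit, had 13 different fragments, with 1, 3 and 9 in Low, Medium and High of replicate 1 and 1 in Low of replicate 2. Exosc6 and Gm266, with 4 High and 3 Medium fragments of replicate 1, were the regions among the 10 leading ones of both replicates with more High than Medium fragments there.

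The 7 further regions of that ranking had 1 fragment in the weaker replicate each. Those near 5830428M24Rik and Gm266 had 9 fragments. The region in an intron nearest Nfib, a nuclear factor I transcription factor, had 8, and those near Morn3 and Srcin1, an inhibitor of SRC kinase, had 7 and 6. Those near Gm33045 and Shisa3, an inhibitor of WNT signalling, had 6 fragments each. Of all 71, 54 had an HE1 Negative fragment and 12 had no Negative fragment at any stage.

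The 10 regions with most fragments each came from 1 replicate. The region with 50 lay in an intron and 9417 bp downstream of the start of Adam19, a membrane metalloprotease, with 49 fragments in Medium and 1 in Low of replicate 1, and these came down to 11 positions. The region 6381 bp from the start of Gnai2, a G protein subunit, had 24, of which 21 in Medium, and that near Gm5424 had 18, all in Medium. The other 7 lay wholly in HE1 Low of replicate 2, near Gm45623 (23 fragments), Dysf (21), Apbb2 (19), Arhgef28 (17), Cebpa (16), Vps8 (15) and Uap1l1 (15). None of the 10 had a fragment in the replicate that did not supply it.

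**Figure D5:**
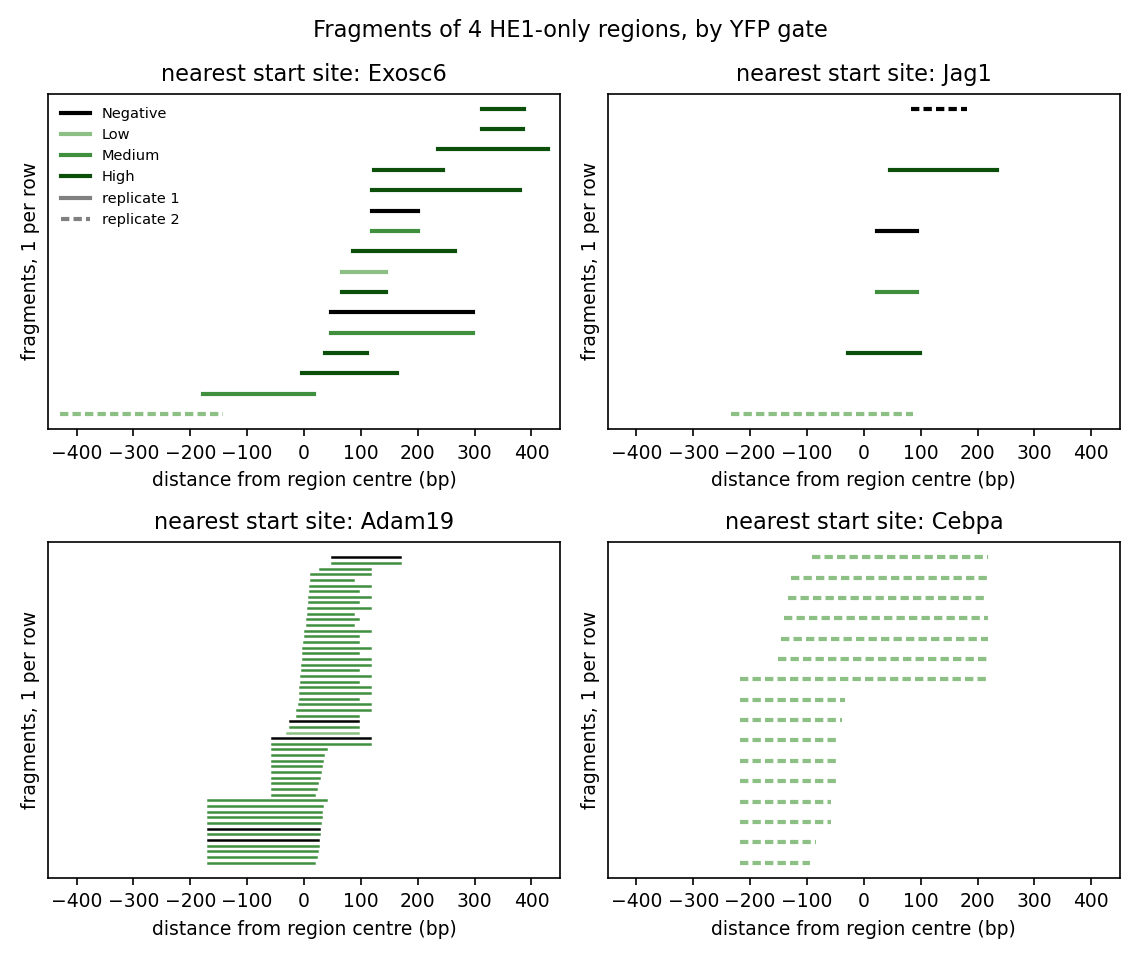
Fragments of 4 HE1-only regions, 1 line each, by distance from the region centre in bp (horizontal axis), coloured by YFP gate and dashed for replicate 2. The region near Exosc6 drew on many separate fragments of replicate 1, while the 16 fragments near Cebpa, all from HE1 Low of replicate 2, shared their left or right end with others, and near Jag1 1 of the 2 Negative fragments came from another stage.

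Genes of endothelial and hematopoietic identity were nearest to HE1-only regions about as often as to positive regions in general. The endothelial surface and junction list had 9 regions at 8 of its 26 genes, which was 0.289% of the regions, beside 0.287% of all regions with a positive fragment. The endothelial transcription factor list had 9 (0.289% beside 0.252%), the Notch list 7 (0.225% beside 0.227%) and the TGF-beta, BMP and SMAD list 9 (0.289% beside 0.258%). The Hippo and TEAD list had 2 (0.0642% beside 0.182%), the AP-1 list 2 (0.0642% beside 0.138%) and the pluripotency list 1 (0.0321% beside 0.125%). The hematopoietic list had 11 (0.353% beside 0.304%), the smooth muscle and mesenchyme list 8 (0.257% beside 0.151%), the extracellular matrix and adhesion list 11 (0.353% beside 0.252%) and the neuronal list, off the lineage, 7 (0.225% beside 0.355%). These are counts of the nearest start site only, and no list was tested.

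Among endothelial genes, the region 54252 bp upstream of Adgrl4 had 5 fragments, 3 in Medium and 2 in High of replicate 1. The region nearest Kdr, which encodes the VEGF receptor FLK1, lay 142594 bp from it and had 3 fragments of replicate 1, 1 in Low and 2 in High. That nearest Cdh5, which encodes VE-cadherin, lay 234108 bp away and had 4 fragments, all in HE1 Low of replicate 2 and at 1 position. Regions nearest Icam2 and Pecam1, both of endothelial adhesion, had 2 fragments each in that library. Foxo1, a forkhead factor required in vessel formation, had 2 regions in replicate 1, with 8 fragments 115311 bp downstream of its start and 5 in an intron. Hhex and Nr2f2, which act in endothelial development, had 3 fragments each, and Foxc1 had 2.

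The Notch list was led by Jag1 and Hey2, a Notch target, with 4 fragments each. The Jag1 region was one of the 71 of both replicates, with 1 Medium and 2 High fragments of replicate 1 and 1 Low fragment of replicate 2, while the 4 near Hey2 lay in Medium of replicate 1 at 1 position. Dlk1, Hes1 and Ephb4 had 2 fragments each in HE1 Low of replicate 2, and the Dlk1 region was all repeat. The Hippo targets Ccn1 and Ankrd1 had 4 and 3 fragments, all of replicate 1 and all at separate positions. Of the AP-1 genes, Junb had 5 fragments of replicate 1, 1584 bp upstream of its start, and Fos had 2 of replicate 2 at 1 position. Smad1, a BMP effector, had 6 different fragments of replicate 2 at 1 position in its first region and 2 fragments, 1 of each replicate, in its second, and Acvrl1, a BMP receptor of endothelium, had 5 fragments of replicate 1 over 3 gates at 5 positions. Smad3 had 3 fragments, and Tgfb3 and Smad5 had 2 each.

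All 11 regions of the hematopoietic list came from replicate 2 alone. Those near Cebpa, Runx3, Mecom, Kit and Ptprc, which encode 3 blood transcription factors, the SCF receptor and CD45, had 16, 9, 6, 4 and 3 fragments, and all of these lay in HE1 Low. They held 8, 2, 5, 3 and 3 positions. Repeats made up 36.3%, 29.5%, 36.6%, 27.6% and 49.7% of their bases, beside means of 16.9% over all regions and 29.3% over HE1-only regions of replicate 2 alone. The smooth muscle and mesenchyme list was led by Twist1, a mesenchymal factor, with 7 fragments, 3 in Medium and 4 in High of replicate 1, and Col1a2, a collagen chain, with 5. Des had 4 fragments of replicate 1 and Hand1 had 4 of replicate 2. Of matrix and adhesion genes, Lama4, a laminin chain of vessels, had 8 fragments, Itgb3, an integrin chain, had regions of 8 and 6, all of these in replicate 1, Vcl had 7 in replicate 2 and Nid2 had 4 in replicate 1. Repeats made up 59.7% of the Vcl region and 4.61% to 38.4% of the others. The pluripotency gene Sall4 had 5 fragments of replicate 2 in a region that was 87.2% repeat. The neuronal list was led by 2 regions near Cntnap2 with 4 and 3 fragments and by regions of 2 near Rbfox3, Nrxn3 and Kcnq3, all of replicate 2. Repeats made up 63.9% and 12.8% of those near Cntnap2 and 100%, 0% and 12.2% of the others.

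There were 6 genes, picked for their count after it was seen, that were nearest to 4 or more HE1-only regions. They were 4933432G23Rik and C1d with 5, and Apbb2, Cyp26b1, Dusp10 and Gm536 with 4. Of the 4 regions nearest Dusp10, a phosphatase of stress kinases, 3 had replicate 1 fragments, with 4, 4 and 2, and 1 of those also had a fragment of replicate 2. Of the 4 nearest Cyp26b1, which degrades retinoic acid, 3 were of replicate 1. Of the 5 nearest C1d, 4 were of replicate 2 and each of those held 1 position. How often a gene of that spacing would collect such numbers was not tested.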

How the data were processed

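Genomic DNA of sorted cells was amplified by PCR over 25 to 30 cycles and sequenced as read pairs. Per the methods and the submitters' processing notes, the authors trimmed reads (Trim Galore), aligned them to mm10 (Bowtie2), retained properly paired reads of mapping quality above 40 (SAMtools) and took the span of a pair as a fragment, with duplicates removed. The versions are not given in the sources used here. A background-library filter, an open-chromatin filter and a split at 1500 bp from start sites (HOMER) are described, and which of them the lists passed was not stated. The deposited values are other than counts or scores, namely the chromosome, start and end of each fragment in bp, 1 list for each of 40 libraries. As no read counts are given, depth is stated as fragments per library.

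Fragments were merged and regions chosen as described, in Python 3.11.15 with pandas 2.3.3, NumPy 2.4.6 and SciPy 1.17.1. Places and start sites came from 45756 curated RefSeq transcripts of GRCm38, the assembly mm10 names, and no fragment passed a chromosome end. Tests were two-sided exact permutation tests over sorts (45 arrangements) or sign flips over libraries (64), with Benjamini-Hochberg adjustment over 17 measures, and the scripts were tested on simulated data. The methods describe a pool of transfected cells per experiment from which the stages were differentiated, so replicate numbers were taken to pair the sorts. The labels do not say that replicates were separate transfections, and p-values measure only the spread between these sorts. Deviations of same-numbered sorts over the 17 measures correlated above 0.1 in 8 of 10 pairs of stages (median 0.392). Regions named were the 10 with most fragments, the 10 seen in both replicates with most in the weaker one, and up to 5 per gene list. Sequences were printed for 8 of these, 4 of them picked after their values were seen. The regions and lists were chosen with earlier results of these data known. Alternatives changed the number of fragments required, near copies, merging, depth, identical fragments, the weight of a region and the libraries used. Leaving out HE1 Low of replicate 2 or HE1 Medium of replicate 1, counting each region once, choosing regions in the other replicate for the Negative gate, and the repeat share were chosen after seeing the data.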

Additional observations from a re-analysis of the deposited data

How the results depend on the processing

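The number of HE1-only regions depended on the settings. It was 18864 with 1 or more fragments, 1223 with 3 or more, 1821 with ends within 5 bp counted once and 695 with every stage thinned to 36551 positive fragments. Leaving out a replicate or 1 of the 6 HE1 positive libraries gave 1304 to 3032, with 1480 without HE1 Low of replicate 2 and 1304 without replicate 2. Merging at 50 bp (3398) and leaving out positive fragments identical to a Negative one (2729) kept it within 1.5 times.

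The difference in the replicate not used for choosing stayed short of the threshold under every alternative run. It turned positive as a share of regions seen (2.56 percentage points, exact permutation p = 0.467) and without HE1 Low of replicate 2 (6.39 per 10000), and it was -33.0 without replicate 2 and -2.25 without replicate 1. The Negative gate difference, 1.70 points, lost its call with ends within 5 bp counted once (1.53, exact permutation p = 0.156), as a share of regions seen (13.5, p = 0.156 by the exact test), without HE1 Low of replicate 2 (1.53, exact p = 0.156; 0.789 without HE1 Medium of replicate 1, exact p = 0.0222) and without identical fragments (0.575, exact p = 0.2, also with the replicate block). It turned to -0.0753 with regions chosen in the other replicate, with and without the block. Leaving out each replicate gave 0.296 to 3.11, where 5 arrangements cannot reach the threshold.

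With the replicate block, the difference in the replicate not used for choosing was -17.6 (exact permutation p = 0.44), and 0 of 17 sequence measures passed. The Negative gate difference was 1.70 with the block (exact permutation p = 0.04, the smallest that 25 arrangements allow). That p is not independent of the rule, since most HE1 Negative fragments in the regions were identical to positive ones. The block changed no call.

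No sequence measure passed after adjustment in either comparison under any alternative run. In the comparison with the other single-stage sets, TEAD turned to -0.0179 per kb with near copies counted once, AP-1 to -0.0735 and SOX to -0.0021 without replicate 1 (0.511 and 0.312 without replicate 2), and fragment length to -25.1 bp without replicate 2 (104 bp without replicate 1) and -9.88 bp without HE1 Low of replicate 2. Against shared HE1 regions, AP-1 turned to -0.0607 and TEAD to -0.0805 per kb without replicate 1 (0.328 and 0.228 without replicate 2). The cause was not tested. HE1 held 101943 positive fragments in replicate 1 and 34809 in replicate 2.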
